A study of Mus musculus with 2 samples.

Results

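The imprinted genes of the Gtl2 cluster and of the H19 region were followed in the liver of male C57BL/6 mice lacking apolipoprotein E (apoE-KO). Gtl2, named Meg3 in current gene tables, Dlk1, Rian, Mirg, H19, Igf2, Peg3, Cdkn1c, Igf2r and Grb10 make up the 10 genes, out of 27962 gene names on the array. They were chosen by gene name, with their differences between the diets already known, so their own differences are given as a description without a test. All non-control probes carrying these names were taken, which gave 22 of 41174 probes. All mice were apoE-KO, were 10 weeks old at the start, and were compared after 1 week on normal chow or on a high-Chol diet, in which Chol made up 1.25% of that chow. Each diet was measured in 3 independent experiments on one-colour 60-base oligonucleotide arrays, called arrays 1 to 3 for normal chow and arrays 4 to 6 for the high-Chol diet. No mice with intact Apoe were on the arrays, so every value refers to diet within apoE-KO liver.

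Imprinted genes are expressed mainly from the copy inherited from a given parent. On mouse chromosome 12, Gtl2, Rian and Mirg are noncoding RNAs made from the maternal copy, while Dlk1, Rtl1 and Dio3 of the same cluster are made from the paternal copy. On chromosome 7, H19 is a noncoding RNA of the maternal copy and Igf2 encodes a fetal growth factor from the paternal copy. In mouse liver both H19 and Igf2 are abundant before birth and are silenced in the weeks after it. Cdkn1c, Igf2r and Grb10, which restrain growth, are made in liver mainly from the maternal copy, and Peg3 from the paternal copy.

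Gtl2 differed most among the members that passed the filter described below, and the probe sequences of the noncoding members show what each spot could bind. The array annotation places them on build mm7, and gene models of that build were not used here, so exons and introns are not given. The 5 Gtl2 probes follow in their order along chromosome 12 (plus strand), and all letters are lower case because no part of a probe was singled out.
Gtl2 junction probe, chr12:107070994-107079479: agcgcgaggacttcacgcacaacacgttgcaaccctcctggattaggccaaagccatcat
Gtl2 probe 2, chr12:107080192-107080251: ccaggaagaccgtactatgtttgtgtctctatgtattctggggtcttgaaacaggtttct
Gtl2 probe 3, chr12:107082578-107082637: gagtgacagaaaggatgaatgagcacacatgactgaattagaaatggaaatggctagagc
Gtl2 probe 4, chr12:107083918-107083977: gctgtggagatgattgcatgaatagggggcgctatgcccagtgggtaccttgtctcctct
Gtl2 distal probe, chr12:107092697-107092756: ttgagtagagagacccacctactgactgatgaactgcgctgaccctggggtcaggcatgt
The first of these matches 60 bases of RNA spread over 8486 bases of the genome, so it spans at least 1 splice junction.

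The Rian probe that rose above background on some arrays and both H19 probes are shown because their arrays disagreed in ways described below. The H19 gene lies on the minus strand, and H19 probe 2 covers 148 bases of the genome.
Rian, chr12:107180614-107180673: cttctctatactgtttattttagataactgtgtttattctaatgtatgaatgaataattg
H19 probe 1, chr7:139003144-139003203: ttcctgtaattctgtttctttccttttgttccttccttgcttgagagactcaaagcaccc
H19 probe 2, chr7:139003393-139003540: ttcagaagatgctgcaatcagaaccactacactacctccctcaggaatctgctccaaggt
G and C made up 55.0% of the Gtl2 distal probe, 23.3% of this Rian probe, and 41.7 and 48.3% of H19 probes 1 and 2.

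The RefSeq promoter table (GRCm38.p6), which gives 250 bases before to 50 after a gene start, held 13 windows for 8 of the 10 genes. The window at the upstream start of Gtl2 lies at chr12:109540746-109541045 on the plus strand, and capitals mark a cyclic AMP response element (TGACGTCA) and a TATA box (TATAAA).
Gtl2 promoter: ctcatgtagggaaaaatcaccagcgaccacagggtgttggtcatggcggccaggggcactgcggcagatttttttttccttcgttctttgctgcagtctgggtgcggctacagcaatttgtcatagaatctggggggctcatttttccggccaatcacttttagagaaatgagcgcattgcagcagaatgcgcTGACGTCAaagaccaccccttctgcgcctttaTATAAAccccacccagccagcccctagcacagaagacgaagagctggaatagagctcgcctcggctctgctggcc
Both strands were searched. The TATAAA letters also occur on the minus strand (TTTATA) in a stretch that overlaps the marked one, and the TGACGTCA motif overlaps neither. The TGACGTCA motif began 57 bases before the start and occurs in 1.79% of the 32851 promoter windows of the table, and the TATAAA motif began 25 bases before it and occurs in 13.6%. Of the 13 windows, 2 held TGACGTCA, this one and that of Peg3. A match describes the letters and is no evidence of binding.

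Signal is given as log2 of the background-subtracted spot brightness relative to the 75th percentile of its own array, so that 0 is the 75th percentile. A value counted as measured where the feature extraction software marked the spot as well above background. Such spots made up 50.5 to 63.0% on normal chow and 62.1 to 67.2% on the high-Chol diet. Array 1 had the fewest (50.5%), and its lowest value marked above background was -3.60, against -5.19 to -4.49 on the other arrays. Signal dimmer than that was not counted as measured on array 1. Values not above background, some of them a floor set by the software that differs between arrays, are taken to have no order. Arrays 1 to 4 lay on slide 1 and arrays 5 and 6 on slide 2, whose 75th percentiles were 271 to 373 and 762 to 799 brightness units, so slide and diet overlap in part. Array 4 against arrays 1 to 3 gives the difference within slide 1, which is also what the fit with slide as a block estimates and is given for the genes named below. All 8 hepatocyte markers (Alb, Apoa1, Ttr, Hnf4a and others) were above background throughout.

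Among the 22 probes, 8 were above background on no array, 7 on some and 7 on all 6. A gene entered the comparison of the diets when 1 or both diets had a probe well above background on each of their 3 arrays, and its brightest such probe stood for it. Gtl2, H19, Cdkn1c, Igf2r and Grb10 passed, and Dlk1, Rian, Mirg, Igf2 and Peg3 did not. The 5 genes that passed owe this to being bright enough, so their counts do not describe all 10. Among the 16726 genes compared, 5.84% were lower by more than 1.5-fold on the high-Chol diet and 15.4% were higher. Of the 5 members, 1 (Gtl2) was lower by more than 1.5-fold and 0 were higher. The diets did not overlap in 2 of the 5, Gtl2 and Igf2r, beside 25.4% of all genes. Since the members were chosen with this contrast known, nothing is read from these counts.

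**Figure D1:**
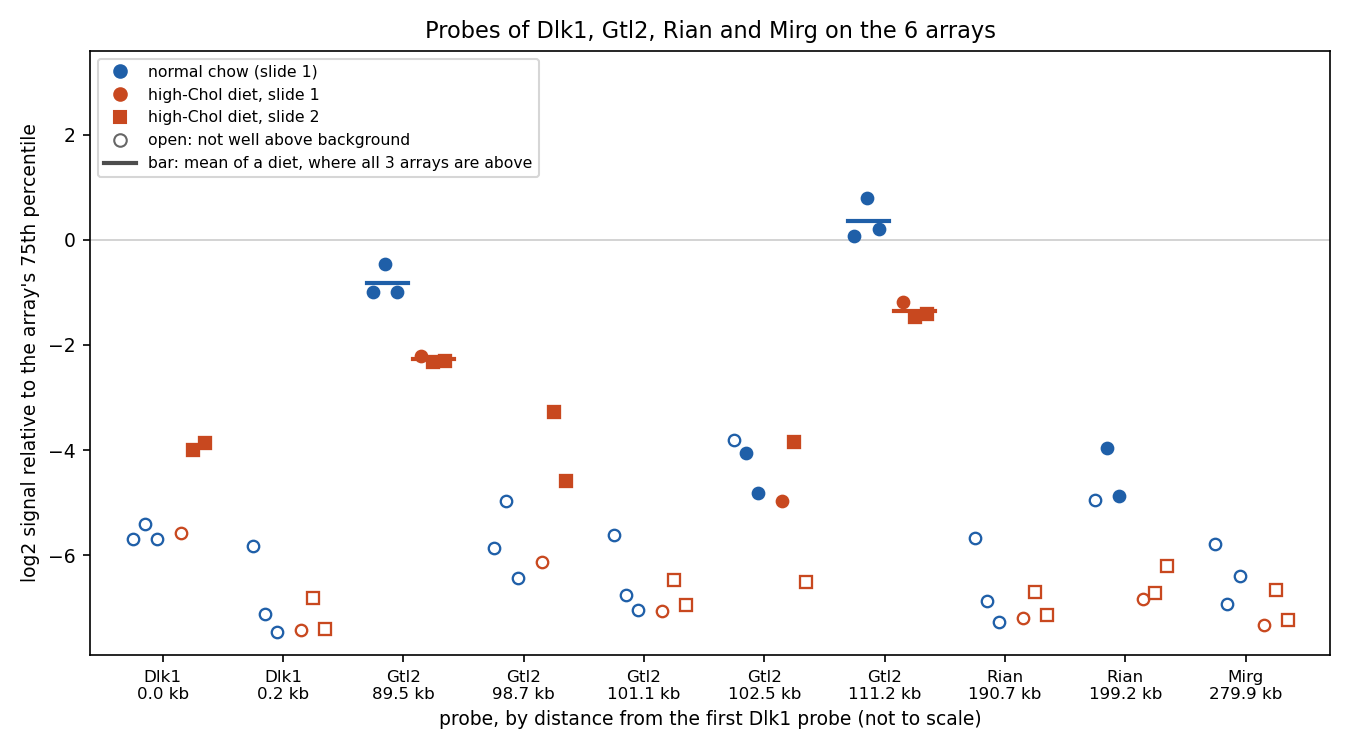
Log2 signal (y axis, 0 being the 75th percentile of the array) of the 10 probes of Dlk1, Gtl2, Rian and Mirg, ordered along chromosome 12 with the distance from the first Dlk1 probe in kb under each name. Points are single arrays (blue, normal chow; orange, high-Chol diet; squares, slide 2), filled where well above background, and bars are means of a diet with all 3 arrays above background. The first and the last Gtl2 probe lie lower on all 3 high-Chol arrays than on all 3 normal chow arrays, and most other points are open.

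Gtl2 RNA was lower on the high-Chol diet by 3.27-fold on its brightest probe. The distal probe read 0.07, 0.81 and 0.20 on arrays 1 to 3 (normal chow), against -1.18, -1.47 and -1.40 on arrays 4 to 6 (high-Chol diet). All 3 high-Chol arrays were lower than any normal chow array, and the means were 0.36 ± 0.39 (SD, n = 3) for normal chow against -1.35 ± 0.15 (SD, n = 3). The log2 difference was -1.71, and within slide 1 it was -1.54. The value of array 4 thus lay next to those of slide 2.

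The junction probe, which reads a spliced stretch at the other end of the gene, gave -0.98, -0.46 and -1.0 on normal chow, against -2.20, -2.32 and -2.30 on the high-Chol diet. The diets again did not overlap. The log2 difference on this probe was -1.46 (2.76-fold lower), and within slide 1 it was -1.39. Both probes are read from the same 6 RNA samples and are not replicates of each other.

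The 3 Gtl2 probes between them gave little signal. Probe 3 was above background on no array. Probe 2 was above background on arrays 5 and 6, at -3.27 and -4.58, and not on normal chow or on array 4, and the bound on its fold change is under 1. Probe 4 read -4.06 and -4.82 on arrays 2 and 3, and -4.96 and -3.84 on arrays 4 and 5, and was not above background on arrays 1 and 6. These probes therefore give no diet difference for the stretch of the gene they cover.

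Rian, which hosts small nucleolar RNAs and follows Gtl2 along the chromosome, was near the limit of detection. Its brighter probe read -3.97 and -4.87 on normal chow arrays 2 and 3, was not above background on array 1 (-4.96), and was not above background on any high-Chol array (-6.83, -6.71 and -6.21). Since 1 of the normal chow readings was itself not above background, no fold is given. The other Rian probe and the Mirg probe, which reads a host RNA of microRNAs, were above background on no array.

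Dlk1 encodes a transmembrane protein of immature hepatocytes and preadipocytes. The brighter Dlk1 probe was not above background on normal chow arrays 1 to 3 or on array 4, and read -4.00 and -3.86 on arrays 5 and 6 of slide 2. With 2 of 3 high-Chol arrays above background, no fold is given. Those arrays are the pair on slide 2, so diet and slide cannot be told apart for this gene. The second Dlk1 probe was above background on no array. Between the first Dlk1 probe and the Mirg probe, which lie 280 kb apart, 3 further probes (AK049674, AK086774 and B830012L14Rik) were also above background on no array.

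Dio3, at the far end of the same cluster, encodes the deiodinase that inactivates thyroid hormone. It read -4.01 and -4.70 on arrays 2 and 3 and was not above background on array 1, against -2.88, -3.82 and -4.22 on the high-Chol diet. It passed the filter only through the high-Chol arrays, and the log2 difference of 1.13 (standard error 0.48, and 1.89 within slide 1) did not pass the test (adjusted p = 0.234 from limma). No probe was matched to Rtl1. Of the cluster, Gtl2 alone was measured on all 6 arrays.

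**Figure D2:**
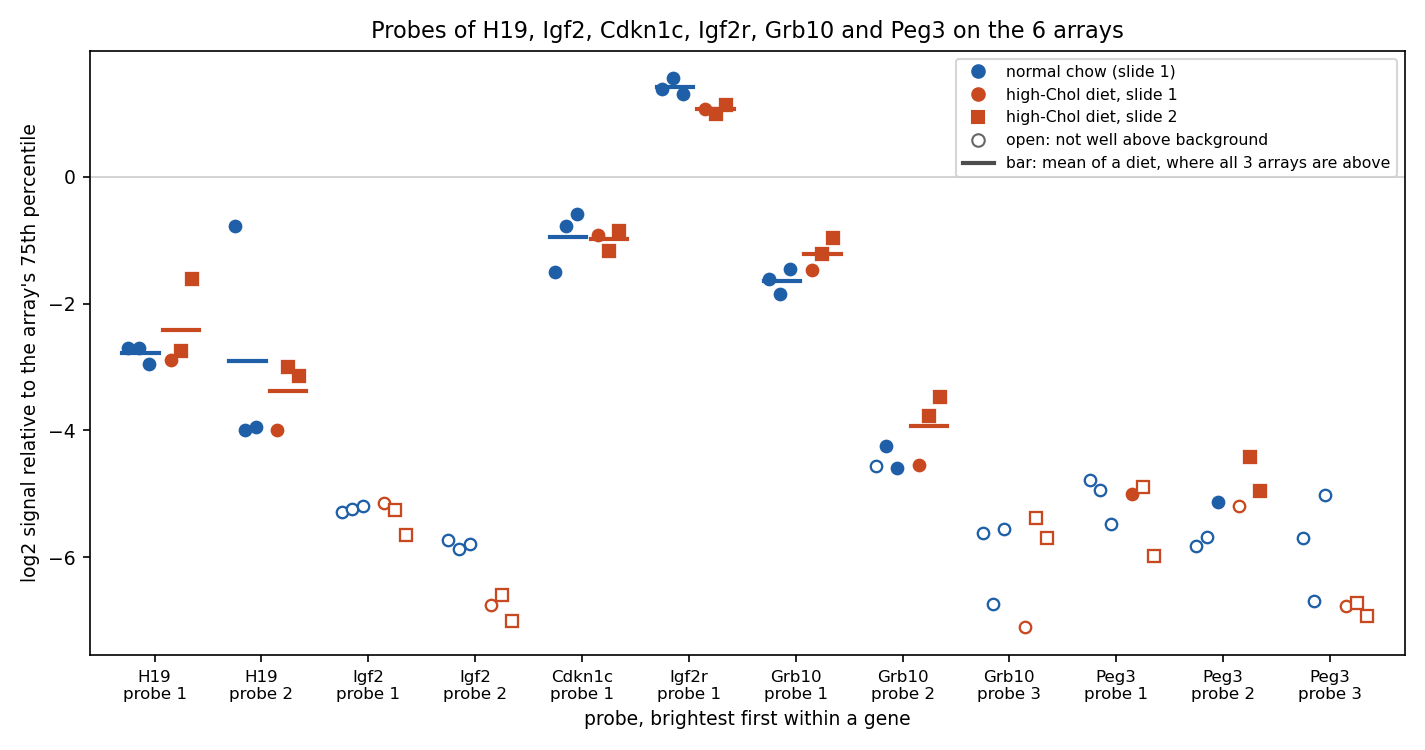
Log2 signal (y axis, 0 being the 75th percentile of the array) of the 12 probes of H19, Igf2, Cdkn1c, Igf2r, Grb10 and Peg3, the brightest probe of a gene first. Colours, shapes and fill are as in the plot of the Gtl2 cluster. Igf2r lies slightly lower on all 3 high-Chol arrays, Cdkn1c overlaps between the diets, and H19 has 1 array far above the others on each of its probes, array 6 on probe 1 and array 1 on probe 2.

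H19 was measured by both of its probes on all 6 arrays, and the probes disagreed. Probe 1 read -2.70, -2.71 and -2.95 on normal chow, against -2.90, -2.75 and -1.62 on the high-Chol diet. Array 6 stood 1.13 above the next highest high-Chol array, and the other 5 arrays spanned 0.25. The log2 difference was 0.36 with all arrays, -0.04 without array 6 and -0.11 within slide 1. Probe 2 read -0.78, -3.99 and -3.95 on normal chow, against -3.99, -3.00 and -3.14 on the high-Chol diet. Here array 1 stood far above the rest, and the log2 difference was -0.47 with it (-1.08 within slide 1) and 0.59 without it. Each probe thus has a single array that decides its direction, and no direction is given for H19.

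Of 4 skeletal muscle markers (Acta1, Myh4, Ckm and Tnnt3), none passed the filter. A probe of Tnnt3, a troponin gene next to H19 on chromosome 7, read -2.62 on array 1 and lay above background also on arrays 5 and 6 at -3.88 and -4.26. On array 1 the Acta1 (-4.36), Ckm and Myh4 probes were not above background, but that array marked no value under -3.60 as above background. The part of other tissue in the H19 readings was not tested.

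Igf2, the partner of H19, was not detected. The probe printed at 10 places on the array was not above background on any of the 6 arrays by the majority of its spots, and its second probe was above background on none. No diet difference is given for it. Igf2r encodes the receptor that removes Igf2 from the circulation and carries lysosomal enzymes. It read 1.38, 1.55 and 1.31 on normal chow, against 1.06, 0.98 and 1.14 on the high-Chol diet. All 3 high-Chol arrays lay under the normal chow arrays, and the log2 difference was -0.35 (1.28-fold lower), the same to this precision within slide 1.

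Grb10 encodes an adaptor that binds the insulin and Igf1 receptors and dampens their signals. Its brightest probe read -1.61, -1.85 and -1.46 on normal chow, against -1.47, -1.22 and -0.97 on the high-Chol diet. Array 4 lay within the range of normal chow and arrays 5 and 6 of slide 2 lay above it. The log2 difference of 0.42 was 0.17 within slide 1. A second Grb10 probe, not above background on array 1, read -4.24 and -4.59 on arrays 2 and 3 and -4.55, -3.77 and -3.47 on the high-Chol diet, with the same pair of arrays highest and a difference of -0.08 within slide 1. The remaining Grb10 probe was above background on no array.

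Cdkn1c encodes the cyclin-dependent kinase inhibitor p57Kip2. It read -1.50, -0.77 and -0.58 on normal chow, against -0.92, -1.18 and -0.85 on the high-Chol diet. The readings overlapped and the log2 difference was -0.03 (0.04 within slide 1), less than the spread on normal chow (SD 0.48, n = 3). Peg3, a zinc finger protein gene, was above background on array 3 (-5.13) and on arrays 5 and 6 (-4.42 and -4.96) on one probe, on array 4 (-5.01) on another, and on none on its remaining probe.

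**Figure D3:**
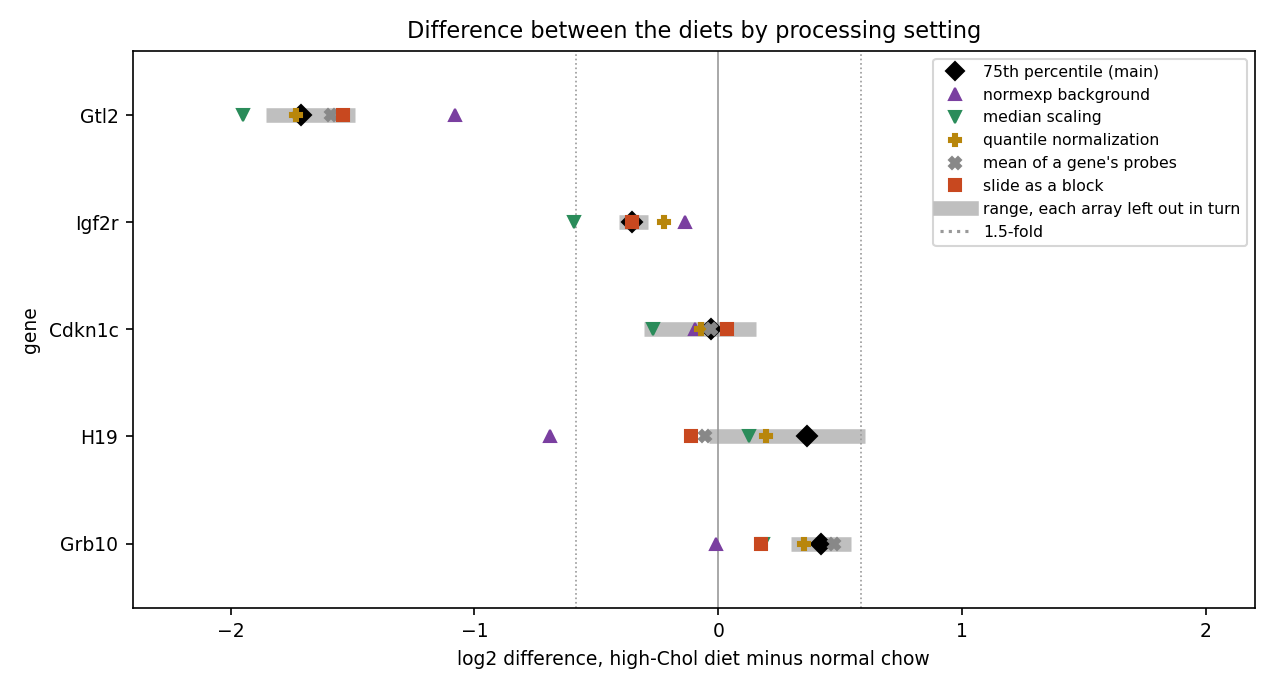
Log2 difference (x axis, high-Chol diet minus normal chow) of the 5 members that passed the filter, under 6 ways of processing (symbols) and over the range when each array was left out in turn (grey bars). Dotted lines mark 1.5-fold. Gtl2 stays between -1.95 and -1.08, Igf2r stays below 0, and H19, Cdkn1c and Grb10 have symbols on both sides of 0.

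Scaling to the median in place of the 75th percentile moved all genes together. Quantile normalization and the normexp background moved genes by different amounts. The median log2 difference of all genes compared was -0.02 on the 75th percentile scale and -0.26 when arrays were scaled to their median. Quantile normalization gave 0.03 and a normexp background -0.11. Relative to that median, Gtl2 differed by -1.69, -1.69, -1.76 and -0.97 in the same order. Igf2r differed by -0.33, -0.33, -0.25 and -0.03 relative to it, so its lower level was not seen with the normexp background. The values for Grb10 were 0.44, 0.44, 0.32 and 0.10. For H19 the normexp background made probe 2 the brighter, which turned the difference to -0.69, while probe 1 gave 0.92 in that setting. The 8 member probes above background on no array differed by -0.97 to -0.80 with the normexp background, so no direction is read from dim probes there.

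Liver is a mixture of cells, and in whole tissue fewer cells of a type and less RNA per cell cannot be told apart. Beside the lower Gtl2, 5 liver endothelial markers were higher and 1 lower (6 of 6 measured, among them Pecam1, Cdh5, Kdr and Stab2), with a median log2 difference of 0.23. With median scaling and with the normexp background Pecam1, Kdr and Tek were lower, and Cdh5, Stab2 and Lyve1 higher. Limma called 0 of the 6 endothelial markers. The log2 of their summed signal, called summed signal below, was 3.19 to 3.45 on normal chow and 3.51 to 3.65 on the high-Chol diet. Stellate cell markers (9 of 9 measured, among them Des, Lrat and Reln) had a summed signal of 5.57 to 6.09 and 5.72 to 6.04. Most of it came from Dcn, which differed by -0.03. The median difference of the stellate cell markers was 0.31, and Col1a1 was called higher (not with slide as a block, adjusted p = 0.148 from limma). The summed signal of 8 hepatocyte markers was 11.2 to 11.4 on normal chow and 10.8 to 10.9 on the high-Chol diet, with 7 of 8 lower and 0 called. That of 5 cholangiocyte markers was 3.81 to 4.09 and 3.27 to 3.67, most of it from Spp1, with 4 of 5 lower and 0 called. Of 7 macrophage markers, Cd68, Lyzs and Marco were called higher by limma and the other 4, though higher in mean, were not, with Emr1 fitted without its outlier spot on array 5. The summed signal was 6.51 to 6.86 on normal chow and 7.96 to 8.39 on the high-Chol diet, most of it from Lyzs. With slide as a block Cd68, Lyzs and Marco were not called (adjusted p = 0.0830, 0.106 and 0.251 from limma), with log2 differences of 1.66, 1.32 and 1.99 within slide 1. Of 5 matched adipocyte markers, Adipoq, Retn and Lep were not above background on all arrays of either diet and the summed signal of the other two was -3.63 to -2.46 and -3.82 to -0.47. Of 5 matched pancreas markers 4 passed, with a summed signal of 2.60 to 2.82 and 1.74 to 2.49, most of it from Amy2. The part of these shifts in the level of Gtl2 was not tested.

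Other genes that are imprinted in the mouse were compared with limma across all 16726 genes, with p-values adjusted over all of them. The lists were written with earlier results of these data known. Many of these genes are imprinted only in placenta or brain, and the arrays do not tell the parental copies apart. Of 63 genes, 58 were matched and 43 passed the filter. Limma called 3 of the 43 higher on the high-Chol diet, Mest, Gatm and Asb4, where it called 2.69% of all genes. Asb4 passed the filter only through the high-Chol arrays, where it is higher, and with a filter for all 6 arrays 2 were called, Mest and Gatm. Limma called 0 lower, where it called 0.227% of all genes, and at an unadjusted p under 0.05 it gave 6 higher and 4 lower, beside 12.3 and 8.83% of all genes. The methods' t-test called 0 after adjustment, and without it gave 4 higher and 3 lower, beside 8.38 and 8.29% of all genes. The median log2 difference of the 43 was -0.04, beside -0.02 for all genes. Genes listed under the maternal copy had a median of -0.15 (7 higher, 17 lower). Those listed under the paternal copy had a median of 0.14 (12 higher, 7 lower). The difference between the lists was not tested. Gnas was counted under the paternal copy, though the copy expressed differs among its transcripts. With the normexp background more of the maternal list was higher than lower, and more of the paternal list lower than higher.

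**Figure D4:**
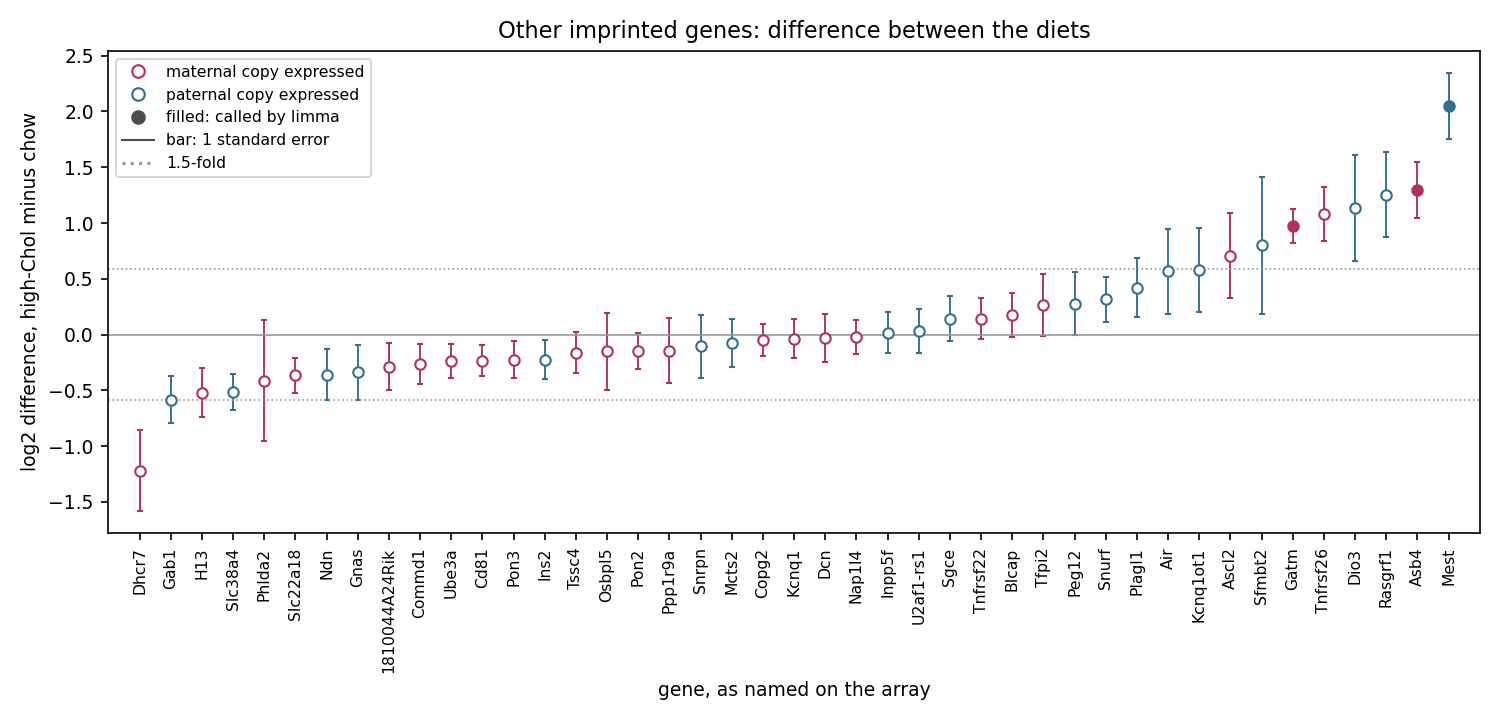
Log2 difference (y axis, high-Chol diet minus normal chow) of the 43 other imprinted genes that passed the filter, in order, with bars of 1 standard error from limma. Colour gives the parental copy under which the gene was listed, filled points were called by limma, and dotted lines mark 1.5-fold. Mest lies highest, Dhcr7 lowest, and 24 of the 43 lie below 0.

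Mest, a hydrolase gene of the paternal copy that is best known from adipose tissue, rose by 4.14-fold. It read -1.82, -2.78 and -1.82 on normal chow, against -0.40, 0.11 and 0.01 on the high-Chol diet. All high-Chol arrays lay above all normal chow arrays. The log2 difference was 2.05 with a standard error of 0.30 (limma, adjusted p = 0.0190) and 1.74 within slide 1. The call was lost without array 2, without array 5 and without array 6 (adjusted p = 0.0543, 0.0973 and 0.0716 from limma).

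Gatm, which catalyses the first step of creatine synthesis, rose by 1.96-fold. It read -1.16, -1.24 and -1.27 on normal chow, against -0.30, -0.06 and -0.38 on the high-Chol diet, without overlap. The log2 difference was 0.97 with a standard error of 0.15 (limma, adjusted p = 0.0241) and 0.92 within slide 1. Asb4, which encodes a protein with ankyrin repeats and a SOCS box, read -3.78 (not above background), -4.15 and -4.09 on normal chow, against -2.69, -2.27 and -3.17 on the high-Chol diet. Its log2 difference was 1.30 with a standard error of 0.25 (limma, adjusted p = 0.0460) and 1.32 within slide 1. Gatm kept its call without array 4 and lost it without any other array, at adjusted p-values of 0.0641 to 0.119 from limma. Asb4 kept its call without array 4 or array 6 and lost it without arrays 1, 2, 3 or 5, at 0.0907 to 0.198. With slide as a block none of Mest, Gatm and Asb4 was called (adjusted p = 0.246, 0.224 and 0.347 from limma). With the normexp background none was called, and the log2 differences were 0.89 for Mest, 0.41 for Gatm and -0.30 for Asb4. With median scaling Mest kept its call (adjusted p = 0.0108 from limma) and Gatm and Asb4 did not (0.103 and 0.0828), and with quantile normalization Asb4 did not (0.126).

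Dhcr7, the reductase of the last step of Chol synthesis, read 5.23, 4.16 and 4.58 on normal chow, against 3.99, 3.44 and 2.88 on the high-Chol diet, without overlap and with a log2 difference of -1.22 (adjusted p = 0.140 from limma) that was -0.66 within slide 1. Rasgrf1 and Tnfrsf26 passed the filter only through the high-Chol arrays, with 1 of 3 normal chow arrays above background in each, so no difference is given, and limma called neither (adjusted p = 0.148 and 0.0729). Plagl1, a transcription factor of the paternal copy that acts on several imprinted genes, differed by 0.42 (0.17 within slide 1) with overlap on its brightest probe (adjusted p = 0.383 from limma). A dimmer Plagl1 probe was above background on 1 of 3 normal chow arrays and on 3 of 3 high-Chol arrays, and the mean of both probes differed by 1.1. Peg10 was above background on no array.

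Among genes that maintain imprints, 9 of 12 matched genes passed and limma called 0 of them. Dnmt1, the maintenance DNA methyltransferase, read -1.31, -1.72 and -1.74 on normal chow, against -1.14, -1.07 and -1.27 on the high-Chol diet, a log2 difference of 0.43 (adjusted p = 0.223 from limma) that was 0.45 within slide 1. Uhrf1, which brings Dnmt1 to newly copied DNA, differed by 1.53 (0.87 within slide 1, adjusted p = 0.0779 from limma), but was above background on 2 of 3 normal chow arrays and passed the filter only through the high-Chol arrays. Dnmt3b, which sets new methylation, passed in the same way with 1 of 3 normal chow arrays above background, so no difference is given, and limma did not call it (adjusted p = 0.162). Without array 4, when the diets lie on different slides, limma called Dhcr7 lower (adjusted p = 0.0314) and Uhrf1, Rasgrf1 and Tnfrsf26 higher (adjusted p = 0.0101, 0.00559 and 0.00704), these last through a filter they passed on the high-Chol arrays only. With the normexp background the differences turned to -0.39 for Uhrf1, -0.62 for Dio3, -0.20 for Plagl1 and -0.02 for Dnmt1. In that setting the 8 member probes above background on no array differed by -0.97 to -0.80.

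Among the partners of Igf2, 5 of 7 passed the filter and limma called 1, Igf2bp2, which passed it only through the high-Chol arrays where it is higher and could not be fitted under the filter for all 6 arrays. Igf2bp2, which binds Igf2 mRNA, read -3.70 (not above background), -4.18 and -4.10 on normal chow, against -2.67, -2.65 and -3.15 on the high-Chol diet, a log2 difference of 1.17 with a standard error of 0.21 (limma, adjusted p = 0.0378) and 1.32 within slide 1. It kept the call without array 4 and lost it without any other array, at adjusted p-values of 0.0566 to 0.169, and with slide as a block it was not called (adjusted p = 0.217 from limma). Nor was it with median scaling or quantile normalization (adjusted p = 0.102 and 0.136 from limma), and with the normexp background its difference was -0.33. Igf1r, the receptor through which Igf2 signals, read -2.15, -1.71 and -1.87 on normal chow, against -2.03, -3.01 and -2.63 on the high-Chol diet, a log2 difference of -0.64 (adjusted p = 0.234 from limma) that was -0.12 within slide 1 and called without array 4 (adjusted p = 0.0292 from limma). Igf2bp1 and Igf2bp3 did not pass the filter.

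Of 5 fetal liver genes and their regulators, 4 passed the filter (Afp, Cd24a, Zbtb20 and Zhx2) and limma called 0, and 0 also with slide as a block. Afp, which like H19 is shut off in liver after birth, was measured on all arrays. It encodes alpha-fetoprotein and read -0.26, -1.29 and -0.65 on normal chow, against 0.33, -1.17 and -1.0 on the high-Chol diet, a log2 difference of 0.12 with a standard error of 0.44 (limma, adjusted p = 0.890) that was 1.06 within slide 1, where array 4 was highest. Cd24a differed by 0.06 (0.08 within slide 1, adjusted p = 0.891 from limma). Gpc3 was above background on no array. Of their repressors, Zbtb20 read 3.58, 3.91 and 3.10 on normal chow, against 2.98, 2.78 and 3.06 on the high-Chol diet, a log2 difference of -0.59 (adjusted p = 0.213 from limma) that was -0.55 within slide 1. Zhx2, which represses Afp and H19, differed by -0.39 (-0.21 within slide 1, adjusted p = 0.256 from limma). It was above background on 2 of 3 normal chow arrays and passed the filter only through the high-Chol arrays. Among 4 other CDK inhibitors that passed the filter beside Cdkn1c, limma called 0, with log2 differences from -0.39 to 1.60.

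**Figure D5:**
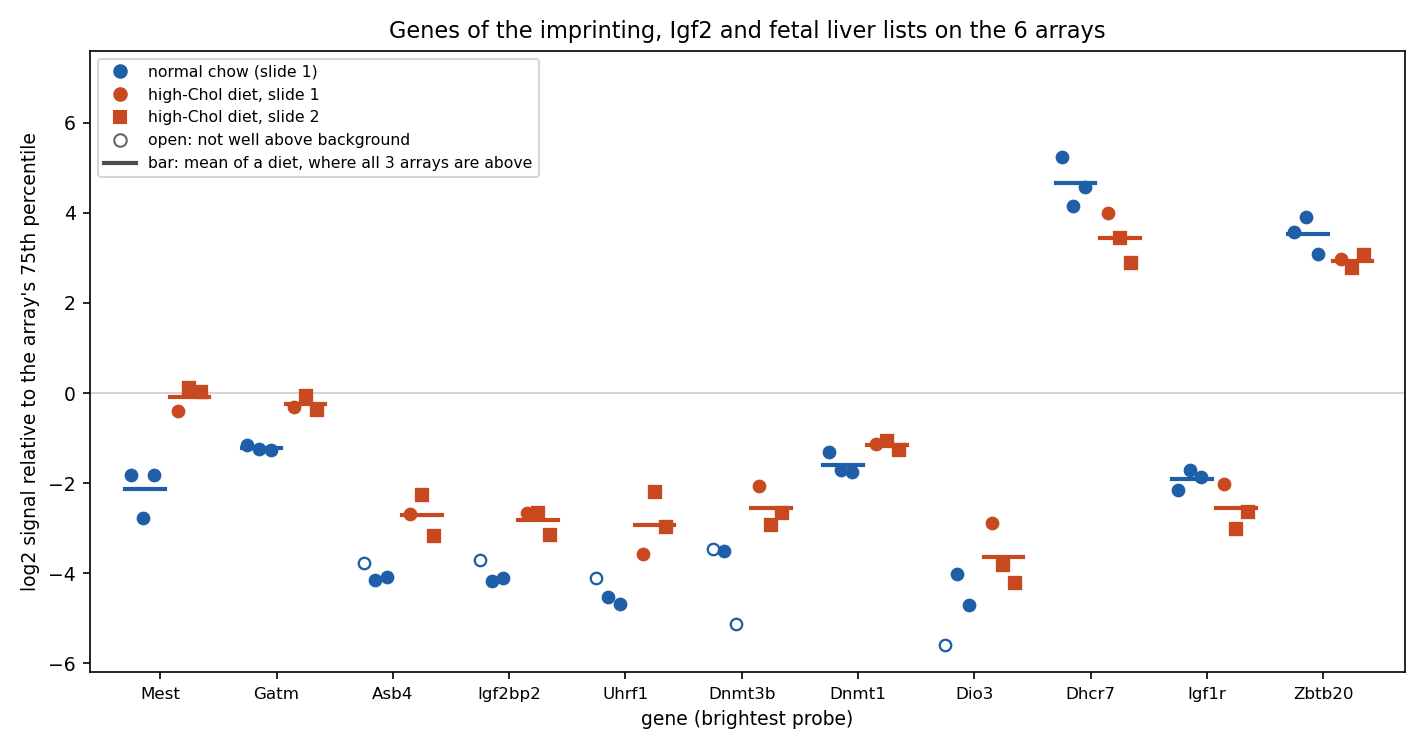
Log2 signal (y axis, 0 being the 75th percentile of the array) of 11 genes from the lists of imprinted genes, imprint maintenance, Igf2 partners and fetal liver genes. Colours, shapes, fill and bars are as in the plot of the Gtl2 cluster. Mest and Gatm lie higher on all high-Chol arrays and are filled throughout, while Asb4, Igf2bp2, Uhrf1, Dnmt3b and Dio3 have open points on normal chow.

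Over the 6 arrays, the genes whose signal followed the Gtl2 distal probe most closely, among 14045 genes well above background on all arrays, were BC008155 (Pearson's r 0.9995), Ccdc5 (0.992), Plekhg3 (0.992), Ehmt1 (0.992) and Zzef1 (0.991). All 5 were lower on the high-Chol diet, by 0.25 to 0.63 on the log2 scale. In all, 163 genes had an r above 0.95 with Gtl2. For H19 probe 1 the nearest were Efna4 (0.985), Arrdc5 (0.984), Hnrpdl (0.984), NAP113722-1 (0.983) and Lmod1 (0.977), each highest on array 6, and 18 genes had an r above 0.95. These values describe 6 arrays that share the split by diet and slide.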

How the data were processed

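Liver RNA of apoE-KO mice was measured on 6 one-colour arrays. The authors deposited the spot intensity of each array, background-subtracted with Agilent Feature Extraction (9.1 in the submitters' processing notes, 9.5.1.1 for slide 1 and 9.1.1.1 for slide 2 in the file headers) and not normalized between arrays, with flags for spots above background. They also deposited a table of normalized log2 values, 1 per probe and diet with the 3 arrays pooled, used as an alternative. Here each log2 intensity was scaled by subtracting the 75th percentile of the non-control spots, outlier spots were left out and spots of a probe averaged. A probe was above background where at least 0.5 of its spots were. The diets were compared over 16726 genes with limma 3.58.1 in R 4.3.3 (Benjamini-Hochberg, threshold 0.05), which was checked on simulated data. Named genes were the 10 members, genes of the lists other than cell type markers that were called or beyond 1.5-fold without overlap, and genes named whatever their values (Afp, Gpc3, Zhx2, Plagl1, Dio3, Rtl1, Mest, Peg10, Igf1r and Dnmt1). The members and lists were chosen with earlier results of these data known. Of 153 list entries 146 were matched. Probe positions are those of the array (mm7). Precision rests on 3 arrays a diet, and the smallest two-sided p an exact permutation test of 3 against 3 allows is 0.1. Alternatives were a normexp background (offset 50), median scaling, quantile normalization, 2 other filters, the mean of probes, each probe, a block for slide, leaving out each array, the methods' t-test and the authors' table.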

Additional observations from a re-analysis of the deposited data

How the results depend on the processing

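The count of members lower by more than 1.5-fold was 1 (Gtl2). It was 2 with median scaling and with the authors' values (Igf2r added), 2 with the normexp background (H19 added, on probe 2), 3 without a filter on dim probes (Rian and Mirg added, with no high-Chol array above background) and 1 to 2 with each array left out. The count of members higher was 0, with 1 without the filter (Dlk1) and 0 to 3 with each array left out, the highest without array 4 (Dlk1, Peg3 and H19). Of the other imprinted genes, 3 were called higher. This was 1 with median scaling, 0 with the normexp background, without the filter, with slide as a block and by the adjusted methods' t-test, and 0 to 9 with each array left out, the highest without array 4. The count called lower was 0, with 3 by the unadjusted methods' t-test and 0 to 2 with each array left out. The normexp background turned Asb4 to -0.30 and Igf2bp2 to -0.33, and called neither Mest nor Gatm. In that setting member probes above background on no array also read lower on the high-Chol diet, so no direction is read from dim probes. Over all genes limma called 450 higher and 38 lower, against 0 and 0 with the normexp background, 328 and 73 with median scaling, 26 and 0 without the filter, 11 and 0 with slide as a block, 4 and 1 by the adjusted methods' t-test, and between 42 and 0 (without array 2) and 3156 and 787 (without array 4) with each array left out. Gtl2 kept its direction in all 15 alternatives (-1.95 to -1.08). The cause of these shifts was not tested. No paired analysis was possible because no replicate number in the array files ties a normal chow array to a high-Chol array.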
